A study of Arabidopsis thaliana with 12 samples.

Results

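AT5G59250 is a gene of the monosaccharide transporter family of Arabidopsis thaliana, and it was followed here through the probe that names this locus and no other. It was 1 gene out of 691 loci named by single-gene probes, which numbered 692 of the 3439 probes in the table. The gene was picked because its level differed between wounded and untreated plants in these same arrays, so its levels and their difference are given as a description, with no test. Plants were the Columbia 0 wild type. In the wounded group, cuts had been made into the leaves and the plants were examined 2 days after wounding, whereas the other group was left untreated. Each group held 6 arrays of total RNA. The labels gave no plant age, no harvested organ, no harvest time for the untreated plants, and no word on whether replicate arrays stand for different plants or extracts. A difference in harvest time can therefore not be told apart from wounding, and the spread between arrays may be technical.

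Proteins of this family sit in membranes and carry monosaccharides across them, usually together with protons. The family in Arabidopsis holds carriers of the plasma membrane, the vacuole and the plastid envelope. Protein databases list AT5G59250 as a chloroplast protein resembling D-xylose-proton symporters, and its nearest relatives are the vacuolar glucose transporters VGT1 and VGT2. In a leaf, the plastid envelope passes triose phosphates to the cytosol by day, and maltose and glucose from starch breakdown by night. The arrays measured transcripts, so they carry no information on where the protein lies or what it transports. The locus names AT5G59240 and AT5G59260 flank it on its chromosome, and neither was named by any probe.

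Array means ran from 0.983 to 1.09 in arbitrary units with no stated scaling, and the share of zeros per array from 4.77% to 5.90%. The arrays differed in their median intensity among values above 0, which was 0.511 ± 0.0587 (SD, n = 6) in the untreated and 0.404 ± 0.0672 (SD, n = 6) in the wounded arrays. Wounded replicate 4 stood apart from the others, with a median correlation over probes of 0.423, against 0.916 or more for each of the other 11 arrays. The differences between the groups are therefore given with and without this array. Of 9 listed leaf photosynthesis markers, 5 had a single-gene probe (LHB1B2, PSBY, PSBW, PSAN and CHLM) and 0 of these were at 0 on any array, whereas 0 of 9 listed root and seed markers had a single-gene probe. In such tissue samples, fewer cells of a type and less RNA per cell cannot be told apart.

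AT5G59250 gave a weak signal in untreated plants. The values hold no background measure, so how far this signal stood above background cannot be told. Its deposited intensity was 0.219 on untreated array 1, 0.196 on array 2, 0.243 on array 3, 0.217 on array 4, 0.206 on array 5 and 0.243 on array 6. These untreated values were close together, with a mean of 0.221 ± 0.0193 (SD, n = 6) and the highest 1.24 times the lowest. The probe had a value above 0 on all 12 arrays, so no array was dropped from any of its values.

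In wounded plants the deposited intensity was 0.259 on array 1, 0.249 on array 2, 0.219 on array 3, 0.593 on array 4, 0.435 on array 5 and 0.350 on array 6. Wounded arrays 4, 5 and 6 were clearly above all untreated arrays, arrays 1 and 2 were slightly above them, and array 3 lay inside the untreated range. The wounded mean was 0.351 ± 0.143 (SD, n = 6), and 0.302 ± 0.0889 (SD, n = 5) without wounded replicate 4. The highest wounded value was 2.71 times the lowest, and 1.99 times without wounded replicate 4.

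Of the 5 leaf photosynthesis markers, 3 had their lowest normalized levels on wounded arrays 5 and 6. The summed deposited intensity of all 5 ran from 22.7 to 39.3 on the untreated arrays. It was 47.2, 46.2, 51.0 and 33.3 on wounded arrays 1 to 4, and 22.2 and 22.3 on wounded arrays 5 and 6. PSBW alone gave 19.4 and 19.5 of the sums on wounded arrays 5 and 6, so these sums say little about the other markers. The normalized log2 level of LHB1B2, a light-harvesting protein, was -0.23 and -0.20 on wounded arrays 5 and 6, against 2.18 or more on each other array. PSAN, a photosystem I subunit, was at -1.17 and -1.09 there, and CHLM, an enzyme of chlorophyll synthesis, at -2.69 and -2.95, for each the lowest levels of the 12 arrays. PSBY and PSBW, photosystem II subunits, did not have their lowest levels there. AT5G59250 was thus clearly higher in deposited units on a pair of arrays where 3 of the 5 leaf markers were lowest, and the part of this in its difference was not tested. Without wounded arrays 5 and 6, which were left out together after the data were seen, the normalized log2 difference of AT5G59250 was 0.98 ± 0.29 (SE, n = 4 and 6). Wounded replicate 4 was 1 of these 4 wounded arrays, at a normalized log2 level of -0.39, against -1.77, -1.54 and -1.68 on wounded arrays 1 to 3. The difference without wounded arrays 4, 5 and 6 together was not computed.

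The rank of the probe on its own array does not depend on scaling between arrays. In untreated plants AT5G59250 lay above 20.4% of the values above 0 on array 1, 17.9% on array 2, 31.0% on array 3, 28.0% on array 4, 22.2% on array 5 and 26.9% on array 6. In wounded plants it lay above 34.7% on array 1, 39.9% on array 2, 36.6% on array 3, 67.7% on array 4, 46.6% on array 5 and 38.4% on array 6. By rank the groups did not overlap, and the lowest wounded array was 3.67 percentile points above the highest untreated one. The share of all probes with groups apart by rank was not counted. As the gene was picked from this contrast, nothing is read from its separation by rank. The mean percentile was 24.4 ± 4.99 (SD, n = 6) in untreated and 44.0 ± 12.3 (SD, n = 6) in wounded plants, or 39.2 ± 4.55 (SD, n = 5) without wounded replicate 4. Counted from the brightest probe, its place ran from 2252 to 2679 on the untreated arrays and from 1050 to 2114 on the wounded ones, among 3236 to 3275 values above 0. A probe's brightness also depends on its own hybridization, so these places describe the signal and not transcript abundance against other genes.

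**Figure D1:**
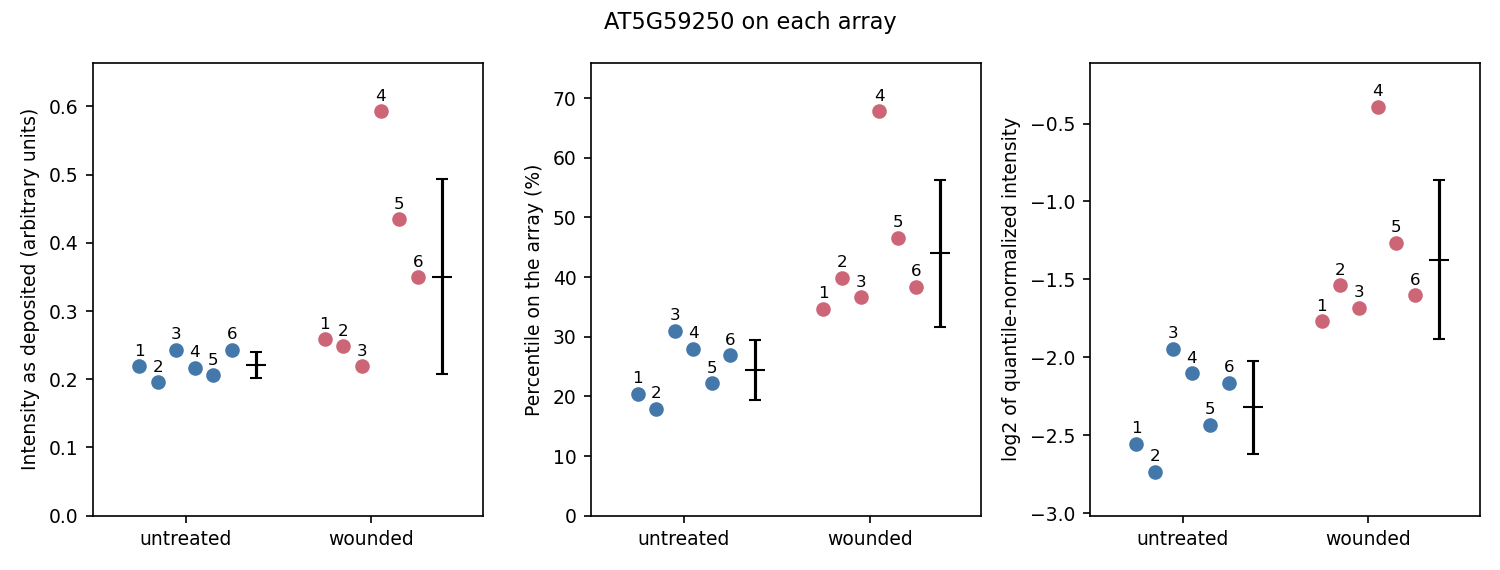
Each point is AT5G59250 on 1 array, labelled with its replicate number, as deposited intensity in arbitrary units (left), percentile among the values above 0 on that array (middle) and log2 of the quantile-normalized intensity (right). Bars show the mean ± SD of 6 arrays. Wounded replicate 3, at 0.219, lies inside the untreated range on the left, and the groups are apart in the middle and on the right. On the scale at the right, 43 of 3233 probes (1.33%) are apart in this direction, and by percentile this share was not counted. The gene was picked from this contrast, so nothing is read from its separation.

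After quantile normalization, which gives all arrays the same distribution of values, the log2 level in untreated plants was -2.56 on array 1, -2.74 on array 2, -1.95 on array 3, -2.10 on array 4, -2.43 on array 5 and -2.16 on array 6. In wounded plants it was -1.77 on array 1, -1.54 on array 2, -1.68 on array 3, -0.39 on array 4, -1.26 on array 5 and -1.60 on array 6. Each wounded array was above each untreated array on this scale. The same held in this direction for 43 of 3233 probes (1.33%) over the 12 arrays and for 85 of 3203 (2.65%) over the 11 arrays without wounded replicate 4. As the gene was picked from this contrast, nothing is read from its place among these probes.

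The mean normalized log2 level was -2.32 ± 0.30 (SD, n = 6) in untreated and -1.37 ± 0.51 (SD, n = 6) in wounded plants. The difference was 0.95 ± 0.24 (moderated SE), which corresponds to a 1.93-fold higher level in wounded plants. Without wounded replicate 4 the wounded mean was -1.57 ± 0.19 (SD, n = 5) and the difference 0.75 ± 0.16 (SE), or 1.68-fold. The median log2 difference of all probes tested was -0.02 in both cases. The difference of AT5G59250 ranked 98 from the top of 3233 probes over the 12 arrays and 86 of 3203 over the 11. Among single-gene probes it ranked 19 of 644 and 18 of 637.

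**Figure D2:**
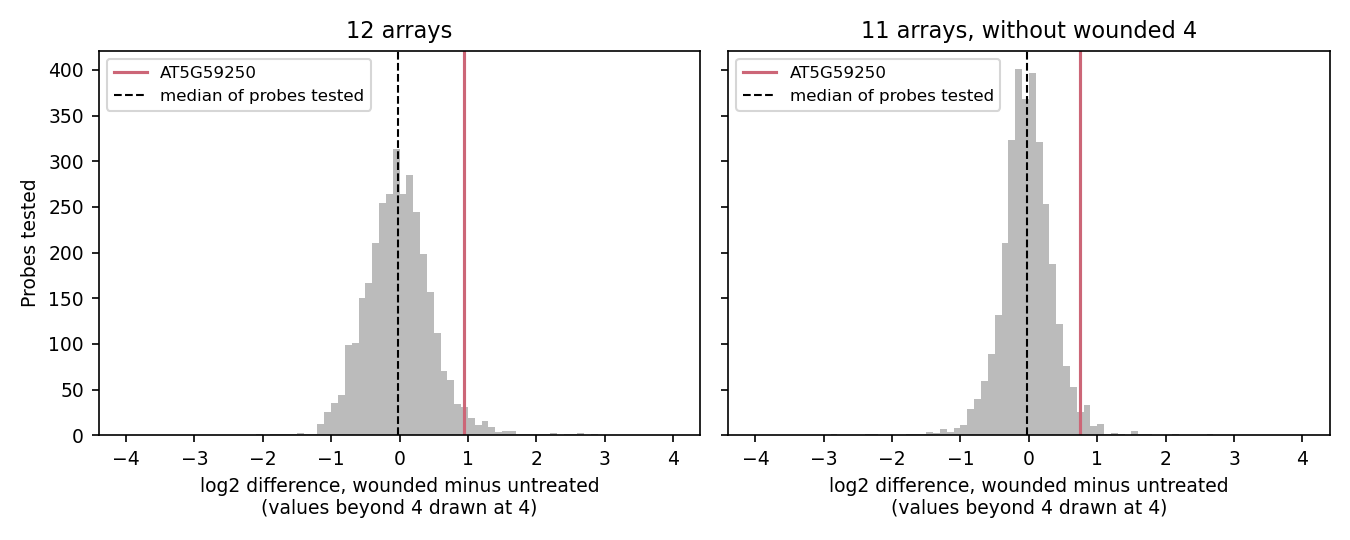
The histograms show the log2 difference between wounded and untreated plants for every probe tested, over 12 arrays (left, 3233 probes) and over 11 arrays without wounded replicate 4 (right, 3203 probes). The coloured line marks AT5G59250, at 0.95 and 0.75, and the dashed line the median of all probes at -0.02.

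On wounded arrays 1 to 3 the difference depended on the scaling between arrays. The median intensity of wounded arrays 2 and 3 was 0.333 and 0.331, the lowest of the 12, and that of wounded array 1 was 0.414. The untreated medians ran from 0.466 to 0.587. Set against the median of its own array, the AT5G59250 intensity was 0.625, 0.747 and 0.661 on wounded arrays 1, 2 and 3, and 0.334 to 0.522 on the untreated arrays. On wounded arrays 5 and 6, whose medians of 0.484 and 0.478 lay within the untreated range, it was 0.899 and 0.732, and on wounded array 4 it was 1.53. The signal on wounded arrays 1 to 3 was thus close to the untreated values in deposited units and higher against the dimmer arrays, while on wounded arrays 5 and 6 it was also higher in the deposited units. Whether the lower medians came from the arrays or from the plants was not tested.

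**Figure D3:**
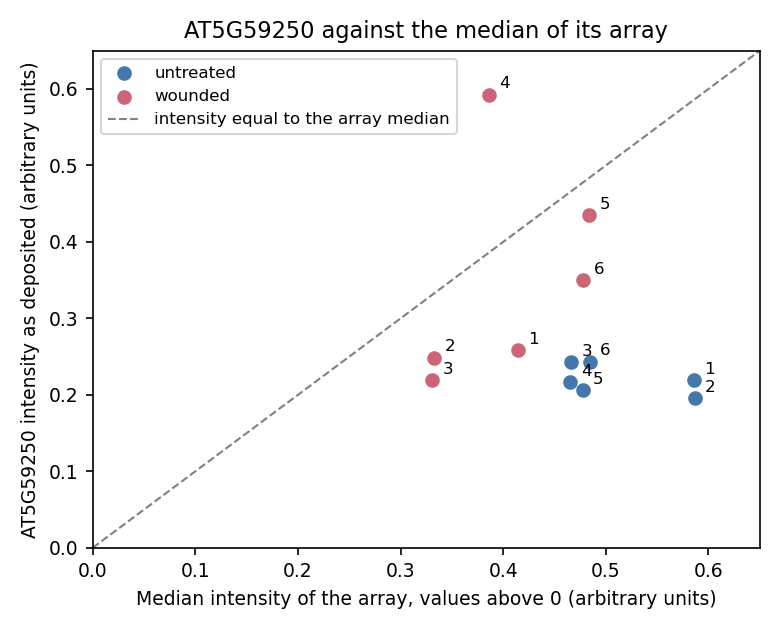
Each point is 1 array, with its median intensity on the horizontal axis and the AT5G59250 intensity on the vertical axis, both in deposited arbitrary units and labelled with the replicate number. Wounded replicates 2 and 3 have the lowest medians, at 0.333 and 0.331, and wounded replicate 4 is the only array above the dashed line of equality.

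With the values as deposited, the log2 difference of AT5G59250 was 0.58 ± 0.24 (SE), or 1.50-fold, over the 12 arrays and 0.41 ± 0.18, or 1.33-fold, without wounded replicate 4. All probes then had a median log2 difference of -0.32 and -0.31, so that AT5G59250 stood 0.90 and 0.72 above this shift. With each array centred on its median, the difference was 0.93 ± 0.23 over the 12 arrays and 0.75 ± 0.15 over the 11. The count of probes with every wounded above every untreated array was 7 of 3233 (0.217%) on the deposited scale, where AT5G59250 was not among them, and 46 of 3233 (1.42%) after median centring. Without wounded replicate 4 these counts were 26 of 3203 (0.812%) and 131 of 3203 (4.09%).

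Probes with neighbouring numbers were taken as a further reference. Whether probes near in number also lay near each other on the arrays is not known. Of the 20 probes nearest in number, 19 were tested, and their median log2 difference was -0.11, with 0.51 as the highest, so none of them reached the value of AT5G59250. Without wounded replicate 4 their median was 0.01 and the highest 0.39, again below AT5G59250. By size of difference the gene, picked from this contrast, ranked 98 of 3233 probes over the 12 arrays and 86 of 3203 over the 11. With so few probes above it, their absence among these 19 was likely beforehand, and nothing is read from it. When the median of these 20 probes was subtracted on each array, the difference of AT5G59250 became 1.27 ± 0.31 (SE), and 1.03 ± 0.23 without wounded replicate 4. The groups then overlapped, since wounded array 6, at -0.94, fell below untreated array 6, at -0.90.

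**Figure D4:**
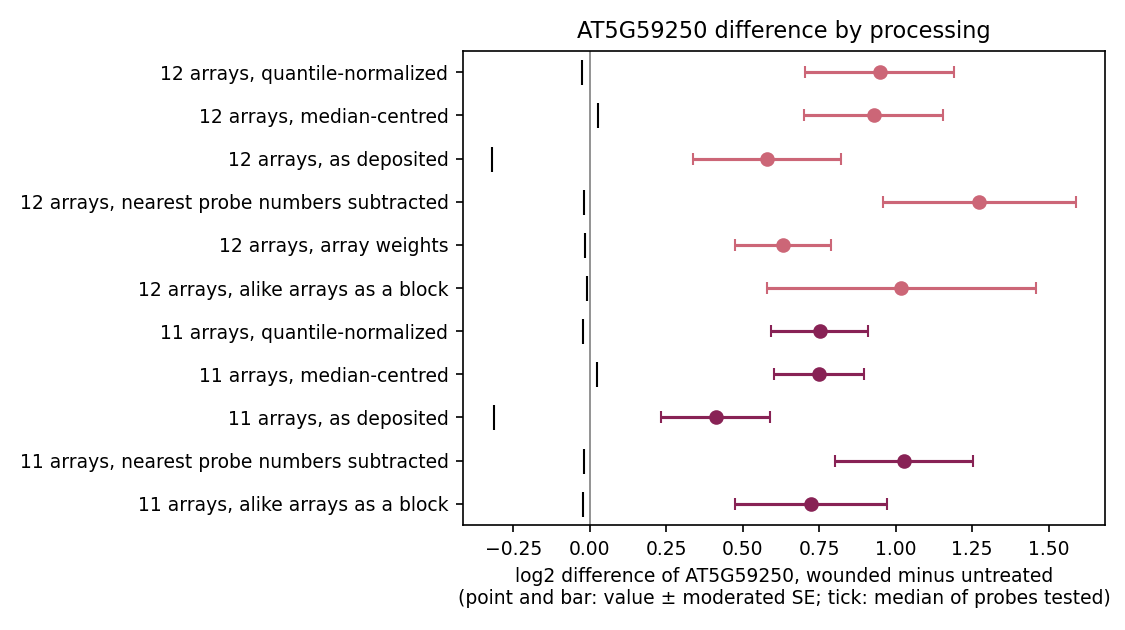
Points with bars give the log2 difference of AT5G59250, wounded minus untreated, with its moderated SE under 6 ways of processing the 12 arrays and 5 ways for the 11 arrays without wounded replicate 4. Vertical ticks give the median of all probes tested. The gene lies above this tick in each case shown, from 0.41 (11 arrays, as deposited) to 1.27 (12 arrays, nearest probe numbers subtracted). It was picked from this contrast, so nothing is read from its place above the ticks.

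Some arrays resembled each other closely over all probes, with correlations between 0.957 and 0.989, and they formed 5 pairs. AT5G59250 had normalized log2 levels that differed by 0.14 to 0.34 within a pair. Its pair means were -2.65 for untreated 1 and 2, -2.02 for untreated 3 and 4, -2.30 for untreated 5 and 6, -1.61 for wounded 2 and 3 and -1.43 for wounded 5 and 6. With such arrays as a random block the difference was 1.02 ± 0.44 (SE) over the 12 arrays and 0.72 ± 0.25 over the 11. The error was therefore wider than when all arrays were counted as separate samples.

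The spread of AT5G59250 within a group was ordinary for these arrays. Its SD over untreated arrays, 0.30 on the normalized log2 scale, was larger than that of 60.2% of the probes tested, whose median SD was 0.26. In the wounded group its SD of 0.51 was larger than that of 37.2% of the probes, and without wounded replicate 4 its SD of 0.19 was larger than that of 23.9%. Wounded replicate 4 had the highest level of the gene on the deposited, the rank and the normalized scale.

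In the order of mean untreated level among 633 single-gene probes with a value on all untreated arrays, AT5G59250 was at place 494. Its neighbours in this order were AT3G07790, at a normalized log2 level of -2.32 ± 0.26 (SD, n = 6), and AT2G14660, at -2.33 ± 0.34 (SD, n = 6). Both were close to it by this choice. In wounded plants AT3G07790 was at -2.35 ± 0.60 with replicate 4 and -2.49 ± 0.54 (SD, n = 5) without it. AT5G59250 was at -1.37 ± 0.51 and -1.57 ± 0.19. AT2G14660 had wounded means of -3.31 ± 2.45 with replicate 4 and -3.90 ± 2.21 without it, too widely spread for an order to be read. As AT5G59250 was picked from this contrast, nothing is read from its distance to these genes in wounded plants.

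Of the 53 genes listed for the monosaccharide transporter family, AT5G59250 was the only one with a single-gene probe. No gene of the sucrose transporter and SWEET list, of the starch list or of the plastid protein import list had one. Among the 35 listed carriers of the plastid envelope, 2 had a single-gene probe. XPT exchanges pentose phosphates for phosphate across the envelope, and PLGG1 exchanges glycolate and glycerate in photorespiration. Among 35 genes of sugar and sugar phosphate metabolism, 3 had one, namely SPS4, a sucrose phosphate synthase, PRK, the phosphoribulokinase of the Calvin cycle, and SBPASE, its sedoheptulose bisphosphatase. The lists were chosen with earlier results of these data known.

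None of these 5 genes passed in limma, which called 0 of 3233 probes (0%) over the 12 arrays and 71 of 3203 (2.22%) over the 11. None of the 5 had an unadjusted limma p under 0.05 in either fit. Over all probes, 377 of 3233 had one over the 12 arrays and 666 of 3203 over the 11. With only 5 genes, nothing is read from this count. The lowest adjusted p of the 5 was 0.531 over 12 arrays and 0.443 over 11. Their median log2 difference was 0.24 over the 12 arrays and 0.08 over the 11, against -0.02 for all probes tested. The 5 photosynthesis markers with a single-gene probe did not pass either.

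XPT had a strong signal, with normalized log2 levels from 1.52 to 2.15 and a mean of 1.80 ± 0.27 (SD, n = 6) in untreated plants. Its wounded arrays other than replicate 4 lay at 1.71, 1.77, 1.72, 2.09 and 2.15, within the untreated range, and wounded replicate 4 was at -0.48. The log2 difference of XPT was -0.31 ± 0.39 (SE) over the 12 arrays and 0.08 ± 0.15 over the 11.

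PLGG1 was about as dim as AT5G59250 in untreated plants, at a mean normalized log2 level of -2.58 ± 0.24 (SD, n = 6). Its wounded arrays were at -2.39, -2.05, -1.76, -0.48, -3.05 and -2.88 for replicates 1 to 6, so wounded arrays 5 and 6 were below its untreated mean, whereas AT5G59250 was above its own there. The log2 difference of PLGG1 was 0.48 ± 0.37 (SE) over the 12 arrays and 0.15 ± 0.23 over the 11. SPS4 had log2 differences of 0.24 ± 0.26 and 0.02 ± 0.15 over the 12 and the 11 arrays. PRK had 0.41 ± 0.27 and 0.15 ± 0.10, and SBPASE 0.10 ± 0.24 and 0.01 ± 0.23. In all of these 5 genes, wounded and untreated arrays overlapped. Over all probes tested, every wounded array was above every untreated one for only 43 of 3233 (1.33%), so nothing is read from this overlap.

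**Figure D5:**
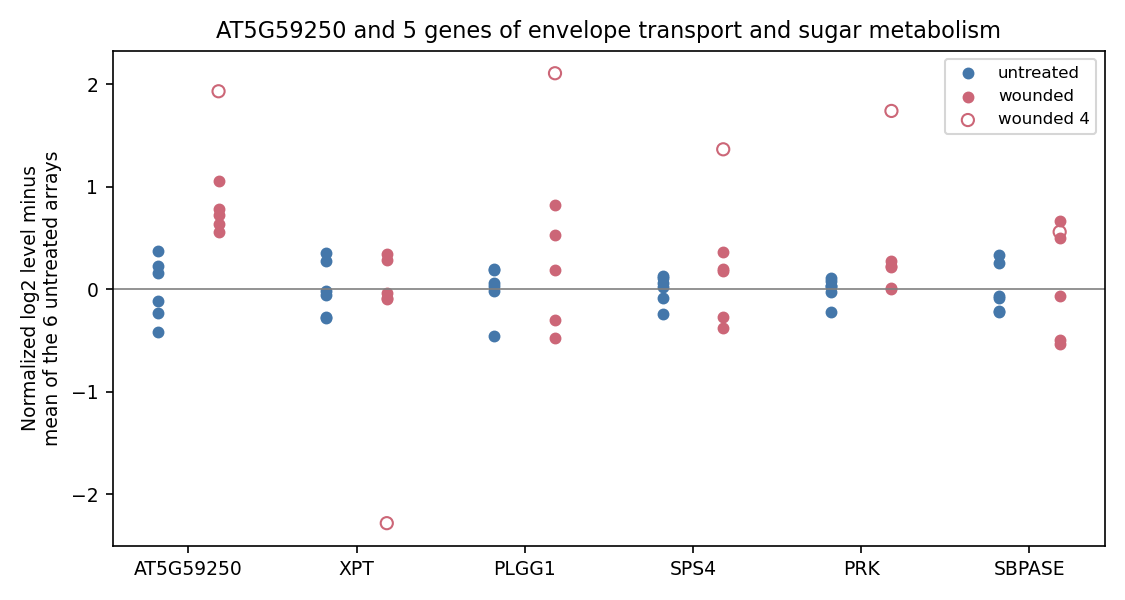
Each point is 1 array, drawn as the normalized log2 level minus the mean of the 6 untreated arrays of that gene; the open circle is wounded replicate 4. AT5G59250, picked from this contrast, has all wounded arrays above its untreated ones, as do 43 of 3233 probes (1.33%). The wounded and untreated points overlap for XPT, PLGG1, SPS4, PRK and SBPASE.

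The genes most like AT5G59250 were taken as those with the highest Pearson correlation over the 11 arrays without wounded replicate 4, among 599 other single-gene probes with a value on all 12 arrays. The correlations ran from -0.958 to 0.849 with a median of -0.0816, and they are given as a description over arrays that share the difference between the groups and include alike arrays. The highest were 0.849 for AT5G11650, 0.848 for AT4G29890, 0.846 for AT4G09620, 0.830 for AT1G74070 and 0.808 for CSLA01. AT4G29890 resembles choline monooxygenase, AT1G74070 is a cyclophilin, and CSLA01 belongs to the cellulose synthase-like genes. The lowest were -0.958 for AT4G14050, a pentatricopeptide repeat gene, -0.912 for AT3G54680, -0.900 for AT2G04540, a mitochondrial ketoacyl-ACP synthase, -0.874 for AT5G55570 and -0.860 for AT5G40470.

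Of the 5 genes most like it, AT5G11650 alone kept a high correlation when wounded replicate 4 was included, at 0.927 over the 12 arrays. The others fell to 0.0849 for AT4G29890, -0.216 for AT4G09620, 0.185 for AT1G74070 and -0.356 for CSLA01. The 5 highest and the 5 lowest were picked on normalized levels over the 11 arrays. Weaker correlations with wounded replicate 4 added, or on another scale, were therefore likely beforehand. AT5G11650 had a mean normalized log2 level of -1.67 ± 0.34 (SD, n = 6) in untreated plants and -0.94 ± 0.27 (SD, n = 5) in wounded plants without replicate 4, and was at 0.31 on wounded replicate 4. On the deposited scale its correlation with AT5G59250 over the 11 arrays was 0.640, that of AT4G29890 0.541 and that of CSLA01 0.591, while those of AT4G09620 and AT1G74070 were 0.833 and 0.829. Among the 5 least like it, AT2G04540 and AT5G55570 stayed strongly negative over the 12 arrays, at -0.952 and -0.869. AT4G14050 and AT3G54680 had -0.663 and -0.639, and AT5G40470 turned to 0.178. On the deposited scale over the 11 arrays the correlations were -0.456 for AT4G14050, -0.496 for AT3G54680, -0.489 for AT2G04540, -0.770 for AT5G55570 and -0.270 for AT5G40470. After median centring AT4G14050 had -0.315, AT2G04540 -0.722, AT3G54680 -0.844, AT5G40470 -0.822 and AT5G55570 -0.912. The order at the bottom thus depended on the scaling and on wounded replicate 4.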

How the data were processed

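Total RNA of 6 wounded and 6 untreated samples was measured, 1 array each; groups and replicate numbers came from the titles. The authors deposited intensity values on a linear scale for 3439 probes. The sources used here do not state the array type, background correction, scaling or genome build. The values hold no signal over background, so whether a dim probe stood above background cannot be told. The number of arrays limits the precision. Names were taken from the platform's annotation, which can be outdated, and updated by gene identifier to RefSeq (TAIR10.1), where 690 of 692 single-gene probes matched; 870 probes named several genes and 1877 had no listed gene, and these were tested without a name.

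Values of 0 were treated as missing, the others quantile-normalized and put on the log2 scale. Probes with values on at least 4 arrays of each group were fitted in R 4.3.3 with limma 3.58.1 (lmFit, eBayes, two-sided tests). P-values were adjusted by Benjamini-Hochberg over all probes, and the threshold was 0.05. The fit was tested on simulated data, with independent arrays and the untreated spread in both groups. These data held no outlying array and no alike arrays, so they cannot show how the fit handles such arrays. The genes named are AT5G59250, the listed genes with a single-gene probe, the 5 highest and 5 lowest correlations and the neighbours in untreated level. The gene and lists were chosen with earlier results of these data known. Alternatives covered scaling, offset, filters, blocks, array weights, subtraction of near probe numbers and leaving out arrays. Plots used matplotlib 3.10.9 in Python 3.11.15.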

Additional observations from a re-analysis of the deposited data

Results flagged for a closer look

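In groups of 6 arrays, the gap between the most extreme array and its nearest neighbour was set against the whole range, and a share above 0.625 was taken as far apart, which chance gives in about 1 group in 20. Of 46 group values examined for the genes named here, 12 were so placed, 11 of them by wounded replicate 4. For AT5G59250, wounded replicate 4 was the highest wounded array, with a gap of 0.633 of the range on the normalized log2 scale and 0.640 by percentile, close to the limit in both cases. In deposited intensity it was also the highest, with a gap of 0.422, below the limit. Among the other genes, wounded replicate 4 was the highest past the limit for PRK (0.843), PSBY (0.699) and AT5G40470 (0.805). It was lowest for XPT (0.832), PSBW (0.748), AT4G29890 (0.690), AT4G09620 (0.724), CSLA01 (0.773) and AT2G04540 (0.795). Among the untreated arrays, replicate 5 was the lowest for PLGG1, with a gap of 0.667.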

How the results depend on the processing

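The log2 difference of AT5G59250 stayed above 0 in all 48 alternative settings, from 0.41 to 1.27. The gene was picked from this contrast and every setting used the same arrays, so nothing is read from this sign. Some settings, such as filters on probes, could not change its difference. The lowest value, 0.41, came with the values as deposited and without wounded replicate 4, and was the only one further from 0.95 than 0.419, the SD between arrays pooled over both groups. Against the smaller untreated SD of 0.301, the values of 0.58 (as deposited), 0.63 (array weights) and 1.27 (near probe numbers subtracted) also lay further away. Leaving out 1 array or 1 number gave 0.75 to 1.08. The difference in mean percentile, 19.6 points, ran from 14.6 to 22.6. The count of probes past the threshold, 0 over 12 arrays in limma (377 at an unadjusted p under 0.05), became 7 with the values as deposited, 1 with an offset of 0.1 and 402 with array weights, and 0 to 71 without 1 array or number, the highest without wounded replicate 4. Chosen after seeing the data, it was 4 without wounded 5 and 6. Without wounded 4 it was 71 with log2 taken first, 87 as deposited, 72 after median centring, 22 with near probe numbers subtracted, 0 with alike arrays as a random block, and 2 to 126 when a further array was left out. AT5G59250 was not tested, and 0 of the 10 other listed genes passed in any setting. The sign of uncalled differences turned for SPS4 (-0.0686) and SBPASE (-0.230) with the values as deposited and for XPT with array weights (0.0295). Without single arrays XPT ran from -0.444 to 0.0814, the highest without wounded replicate 4, and SBPASE from -0.00815 (without wounded replicate 3) to 0.232. SBPASE was -0.0205, -0.0502 and -0.00344 without numbers 2, 3 and 4 in both groups, and XPT 0.0251 without number 4. With the replicate number as a block, the difference of AT5G59250 had to stay at 0.95, as each number has 1 array of each group. Only its SE could change, and it was 0.24. In this fit 0 probes passed (254 unadjusted). Same-numbered arrays deviated from their group means with correlations of -0.37 to 0.15. Of the untreated arrays, 0 of 6 correlated best with their own number, and untreated arrays 5 and 6 both did so with wounded replicate 4. As that array and the alike arrays entered this check, it cannot decide whether the numbers pair the samples. The causes were not tested.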
